A study of Rattus norvegicus with 8 samples.

Results

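The synaptic vesicle and release machinery was followed here through 33 genes, chosen by name with earlier results of these data known. The cells were perineuronal oligodendrocytes that flow cytometry had isolated from postnatal day 7 rat brain. Probe sets annotated to exactly 1 of these genes were averaged within a gene for each array, and all 33 of the genes had at least 1 such probe set, out of 13810 named genes in the series. The cells had been sorted for A2B5, a ganglioside epitope carried by glial precursors, and for OTMP, which the labels do not explain. Chip A and chip B, a pair of Affymetrix array types, each had arrays of 4 biological replicates. They share 100 probe sets, none of them of these genes. Arrays with the same replicate number were taken from their values to hold the same sample, which the sample titles do not state. There was no other cell population and no control. No genotype or treatment, strain or number of animals is given in the sources used here, and the p-values below measure the spread between these replicates.

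Neurons pass signals by fusing transmitter-filled vesicles with the membrane at the active zone. SNARE proteins on the vesicle and on the membrane zip together and drive fusion, synaptotagmins and complexins tie it to calcium, and scaffolds hold vesicles near calcium channels. Vesicle membrane is then retrieved by endocytosis. Cells of the oligodendrocyte lineage express some of this machinery too, and their precursors receive synapses from neurons.

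Each value was a probe set's ratio to a reference, which the labels leave unnamed. A ratio above 1 therefore means more signal than in that reference, and gives neither the abundance of a transcript nor whether it was present. For a tissue-derived RNA such as this, fewer cells of a type and less RNA per cell cannot be told apart. Ratios were put on the log2 scale and tested against 0, a ratio of 1, with limma across all named genes of an array type (Benjamini-Hochberg adjusted p under 0.05).

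A few genes of the release machinery stood clearly above the reference. On chip A 25 of 31 (80.6%) had a mean within 0.5 of it on the log2 scale, as did 70.0% of all named genes. On either array type 7 of the 33 genes (21.2%) were higher than a ratio of 1 by limma: Snap25, Slc17a6, Cadps, Napb, Syp, Vamp1 and Cplx2. Of all 13810 named genes, 8.39% were. Another 6 (18.2%) were lower, Rims1, Syt5, Vamp2, Dlg4, Syt1 and Rab3a, against 35.8% of all named genes, and 20 were not called. On chip A the counts were 6 higher and 4 lower of 31 genes, where 9.17% of 10411 named genes were higher and 32.9% lower. On chip B they were 1 higher and 2 lower of 7 genes, where 4.13% of 5667 named genes were higher and 30.9% lower. The median log2 ratio was -0.08 over the 31 genes on chip A and -0.14 over all named genes there, and -0.05 over the 7 genes and -0.15 over all named genes on chip B. These counts and medians describe a list chosen by name with earlier results of these data known, and no test sets the list against other genes.

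The higher calls of Snap25, Slc17a6 and Cadps on chip A and of Napb on chip B, and the lower calls of Rims1 on chip A and of Rab3a and Syt1 on chip B, held under all alternative settings run, 12 on chip A and 11 on chip B. Each of these genes had 1 probe set on that array type. The settings that take the median or the highest probe set therefore could not change its log2 ratio, and the filters left it unchanged. The higher calls of Syp, Vamp1 and Cplx2 were slight and did not hold in limma when single replicates were left out. The adjusted p was 0.0901, 0.0699 and 0.0840 for Syp without replicates 1, 3 and 4 (log2 ratios 0.39, 0.41 and 0.28), and 0.117, 0.0846 and 0.126 for Vamp1 without replicates 2, 3 and 4 (0.26, 0.30 and 0.24). For Cplx2 it was 0.0817, 0.0862, 0.0948 and 0.0685 without replicates 1 to 4 in turn (log2 ratios 0.30, 0.29, 0.22 and 0.31). Of the lower calls, Dlg4 was lost with the median or the highest probe set (log2 ratios -0.34 and -0.01, limma adjusted p = 0.0569 and 0.953) and Vamp2 with the highest probe set (-0.02, 0.883). Centred on genes of other organs, Dlg4, Vamp2 and Syt5 were not called (-0.11, -0.20 and -0.37, limma adjusted p = 0.173, 0.1002 and 0.0988). The counts moved with the level taken as 0. With each array centred on its median, 33.4% of the calls over all named genes on chip A were higher, against 21.8% as deposited, and the group had 7 higher and 4 lower. Centred on genes of other organs, 66.7% of those calls were higher and the group had 13 higher and 1 lower.

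**Figure D1:**
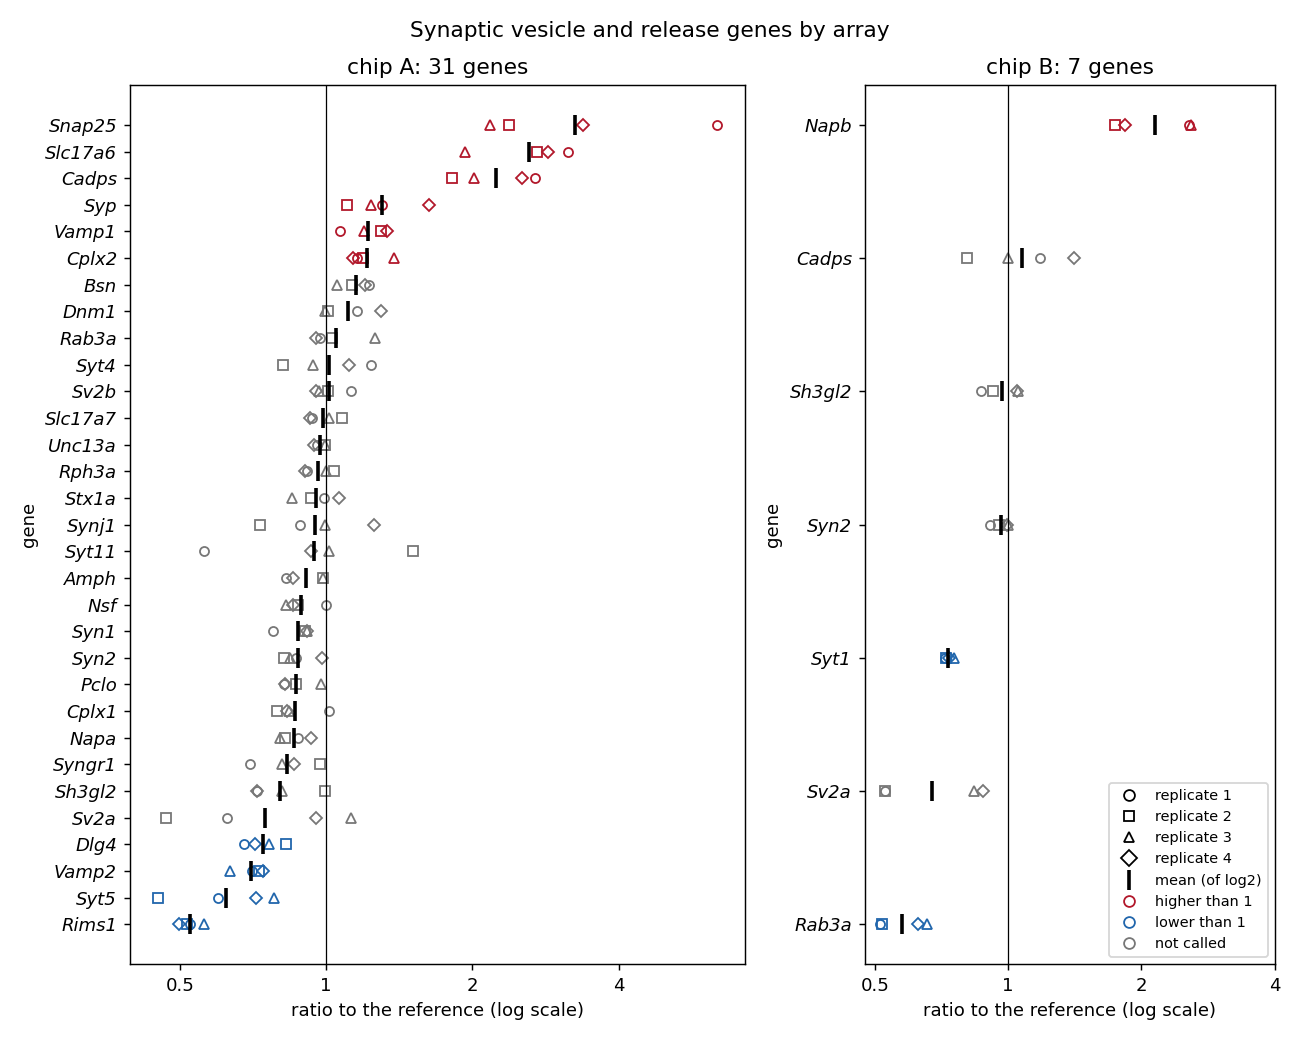
Ratio to the reference (log axis) of each release machinery gene on the 4 arrays of chip A and of chip B, with open symbols for replicates, a bar for the mean and colours for the limma call. Snap25, Slc17a6 and Cadps on chip A and Napb on chip B sit at mean ratios from 2.15 to 3.25, while most other genes straddle or fall below 1.

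**Figure D2:**
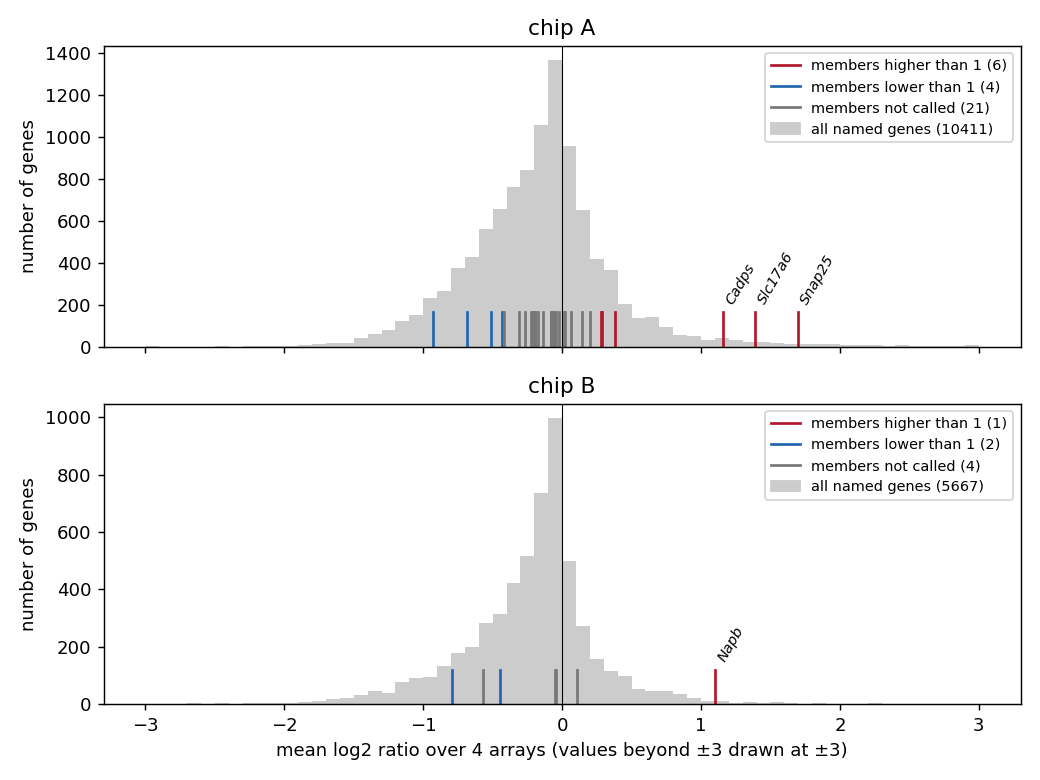
Distribution of mean log2 ratios over all named genes (grey) on chip A and chip B, with a tick for each release machinery gene. The ticks of Cadps, Slc17a6 and Snap25 on chip A and of Napb on chip B lie far out in the right tail, from 1.10 to 1.70.

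The values are preceded by 4 promoters, those of 3 genes called higher and of the lowest gene on chip A, all with calls that held under every setting, to show what they do and do not share upstream. Rab3a and Syt1, whose lower calls on chip B also held, are not printed. RefSeq's promoter table (rat assembly GRCr8) held 30 of the 33 genes; Snap25, Syngr1 and Syt5 were not in it. The stretches below are the 250 bases before each gene's start, read 5′ to 3′ on the gene's strand. Capitals mark GC boxes (GGGCGG) and 1 form of the E-box (CAGCTG), found on either strand. Other forms of the E-box were not searched and are not marked. Slc17a6 and Cadps were higher than the reference on chip A, Napb was higher on chip B, and Rims1 was lower on chip A. They lie at chr1:110348197-110348446 (plus strand), chr15:14720476-14720725 (plus), chr3:156632419-156632668 (minus) and chr9:32692773-32693022 (minus).
Slc17a6: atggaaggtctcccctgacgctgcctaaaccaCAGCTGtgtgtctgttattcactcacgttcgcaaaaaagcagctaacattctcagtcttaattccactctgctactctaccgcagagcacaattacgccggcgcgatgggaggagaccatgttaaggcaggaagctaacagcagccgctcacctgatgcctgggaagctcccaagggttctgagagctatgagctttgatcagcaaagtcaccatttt
Cadps: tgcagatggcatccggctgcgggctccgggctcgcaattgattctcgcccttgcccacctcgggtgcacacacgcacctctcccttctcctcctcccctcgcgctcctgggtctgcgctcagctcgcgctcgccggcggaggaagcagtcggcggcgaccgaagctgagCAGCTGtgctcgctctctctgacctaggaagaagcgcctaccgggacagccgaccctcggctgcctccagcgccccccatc
Napb: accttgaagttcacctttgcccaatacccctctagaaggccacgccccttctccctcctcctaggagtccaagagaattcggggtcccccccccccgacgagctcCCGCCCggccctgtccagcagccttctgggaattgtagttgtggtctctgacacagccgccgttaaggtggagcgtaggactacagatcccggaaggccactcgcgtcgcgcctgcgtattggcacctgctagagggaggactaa
Rims1: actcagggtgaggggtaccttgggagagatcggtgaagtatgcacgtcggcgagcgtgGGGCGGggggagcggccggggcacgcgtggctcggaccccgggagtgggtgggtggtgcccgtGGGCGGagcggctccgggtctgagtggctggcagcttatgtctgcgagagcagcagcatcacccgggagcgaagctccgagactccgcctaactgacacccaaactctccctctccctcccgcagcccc
Both of the first pair held 1 E-box of the form searched and no GC box, while Napb held 1 GC box and Rims1 held 2. This form of the E-box was found before 7 of the 30 genes (23.3%) and before 4007 of all 33469 promoters. A GC box was found before 19 of them (63.3%) and before 30.5% of all promoters. The EGR motif (GCGGGGGCG) was present before 7 (23.3%, against 2.45% of all promoters) and the cyclic AMP response element (TGACGTCA) before 4 (13.3% against 1.59%), while no TATA box (TATAAA, 12.9% of all promoters) was found before any. The EGR motif matched before Nsf, Sh3gl2, Syn1, Syn2, Syp, Syt1 and Vamp2, and the cyclic AMP response element before Napa, Sh3gl2, Syn1 and Vamp1. These motifs may overlap one another, and a match is a description of letters.

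RE1 is the element through which the repressor REST holds down neuronal genes in other cells. Its core was searched on both strands of the 250 bases before each start, with any base allowed at 3 positions and no other mismatch. Less exact matches and sites elsewhere were not sought. The core occurred before 20 of all promoters (0.0598%) and before 1 of the 30 genes. That gene was Rph3a, which encodes the Rab3 effector rabphilin, at chr12:41203312-41203355 of GRCr8 (plus strand), with the match in capitals; the core reads on the opposite strand.
Rph3a: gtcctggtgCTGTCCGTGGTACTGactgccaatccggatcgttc
Rph3a stood at ratios of 0.912, 1.04, 0.997 and 0.905 in replicates 1 to 4 on chip A, close to the reference on every array.

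The SNARE proteins themselves were divided. Snap25, the membrane SNARE that supplies a pair of helices to the fusion complex, had ratios of 6.37, 2.38, 2.17 and 3.39 in replicates 1 to 4 on chip A. All of its arrays were above 2, and replicate 1 was far above the other three. The mean log2 ratio was 1.70 ± 0.70 (SD, n = 4; limma adjusted p = 0.00404), at percentile 99.2 of all named genes on chip A. Vamp1, a vesicle SNARE also called synaptobrevin 1, averaged 0.29 ± 0.15 on the log2 scale (limma adjusted p = 0.0371), with gene-level ratios of 1.07, 1.30, 1.20 and 1.34. Its 3 probe sets were not alike: the first had ratios of 1.54, 2.17, 1.82 and 2.37, while the others averaged ratios of 1.06 and 0.879. The gene's call thus rested on 1 probe set and was lost with the median of the probe sets (log2 ratio 0.08, limma adjusted p = 0.415).

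Vamp2, the main synaptobrevin of forebrain synapses, was lower on chip A at a mean log2 ratio of -0.51 ± 0.10 (limma adjusted p = 0.00292). The call came from a probe set with ratios of 0.488, 0.545, 0.472 and 0.486, whereas the other had 1.01, 0.971, 0.853 and 1.13 and lay around the reference. Stx1a, the syntaxin of the presynaptic membrane, stood at -0.07 ± 0.14 and was not called (limma adjusted p = 0.545). Its probe sets also parted, with 1 at ratios from 0.705 to 0.777 and the other from 0.930 to 1.60.

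Disassembly of spent SNARE complexes needs the ATPase NSF and its SNAP adaptors. Napb, the gene of the brain adaptor beta-SNAP, was measured on chip B alone and had ratios of 2.56, 1.74, 2.59 and 1.84 in replicates 1 to 4. Every array was well above the reference, and replicates 1 and 3 were the high pair. Its mean log2 ratio was 1.10 ± 0.31 (limma adjusted p = 0.0026), at percentile 99.0 of the chip B genes. The general adaptor gene Napa, by contrast, stood on chip A at 0.877, 0.822, 0.805 and 0.930, below the reference on each array and just short of the threshold (log2 ratio -0.22 ± 0.09, limma adjusted p = 0.0538). Nsf averaged -0.17 ± 0.12 (limma adjusted p = 0.124), with 1 of its 3 probe sets lower than 1. Napb and Napa were read on different array types, and the difference between them was not tested.

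Of the synaptotagmins, none was called higher as a gene. Syt1, the calcium sensor of fast release in forebrain, was read by 1 probe set on chip B with ratios of 0.720, 0.726, 0.755 and 0.735. These were among the most even values of the group, and the gene was lower at a log2 ratio of -0.45 ± 0.03 (limma adjusted p = 0.00145). Even values were common among low probe sets: of all named probe sets called lower on chip B, 61.3% had an SD under 0.1 (log2). Syt5 had 0.598, 0.450, 0.780 and 0.717 on chip A, low on each array and lowest in replicate 2 (-0.68 ± 0.35, limma adjusted p = 0.0122). Syt11, a synaptotagmin that does not bind calcium, had its lowest ratio, 0.561, in replicate 1 and its highest, 1.51, in replicate 2, so its mean of -0.08 ± 0.59 (limma adjusted p = 0.802) hides opposite signs. Syt4, known for vesicle traffic in neurons and glia, averaged 0.02 ± 0.27 (limma adjusted p = 0.900) over 2 probe sets that disagreed. One had ratios of 3.48, 1.42, 1.79 and 2.44 and the other 0.440, 0.469, 0.495 and 0.510, and their ranges did not come near each other.

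Among the regulators of release, Cadps stood out. It encodes CAPS1, which primes vesicles for exocytosis and acts most of all on dense-core vesicles. On chip A its ratios were 2.70, 1.81, 2.02 and 2.53 in replicates 1 to 4, all well above the reference (1.16 ± 0.27, limma adjusted p = 0.000812, percentile 98.0). A second Cadps probe set, on chip B, had 1.18, 0.807, 1 and 1.41 and was not called (0.11 ± 0.34, limma adjusted p = 0.595). The higher call therefore belongs to the chip A probe set. The chip B one held exactly 1 in replicate 3, as 23.0% of chip B probe sets did on some array. Cplx2, a complexin that clamps and promotes SNARE assembly, had 1.16, 1.19, 1.38 and 1.14 on chip A, a small shift seen on every array (0.28 ± 0.13, limma adjusted p = 0.0347). Cplx1, the other complexin of the list, was not called (-0.21 ± 0.16, limma adjusted p = 0.101). Its 2 probe sets had mean ratios of 1.28 and 0.583.

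Rims1, the active zone organizer that tethers vesicles to calcium channels, was the lowest gene of the group on chip A. Its single probe set had ratios of 0.524, 0.517, 0.560 and 0.499, low and even on all arrays (-0.93 ± 0.07, limma adjusted p = 0.00027). The vesicle GTPase gene Rab3a, to which RIM binds, gave different answers on the array types. On chip B it had 0.515, 0.519, 0.656 and 0.628 and was lower (-0.80 ± 0.18, limma adjusted p = 0.0018), while on chip A it had 0.973, 1.03, 1.26 and 0.952 and was not called (0.07 ± 0.18, limma adjusted p = 0.611). Unc13a, which encodes the priming factor Munc13-1, and Rph3a lay at log2 ratios of -0.04 ± 0.04 and -0.06 ± 0.10, neither called (limma adjusted p = 0.650 and 0.566).

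The active zone scaffold Bassoon, encoded by Bsn, gave a wide disagreement, its probe sets lying 2.27 apart on the log2 scale, as did the outer pair of Sv2b. One probe set had ratios of 2.94, 2.36, 2.05 and 2.86 in replicates 1 to 4 and was higher than 1 (1.34 ± 0.25, limma adjusted p = 0.000488 over probe sets). The other had 0.509, 0.541, 0.542 and 0.506 and was lower (-0.93 ± 0.05, limma adjusted p = 0.000249). Averaged, the gene stood at 0.20 ± 0.10 and was not called (limma adjusted p = 0.0729). Its relative Piccolo, encoded by Pclo, had probe sets at mean ratios of 1.01 and 0.750, with only the second called.

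Vesicle membrane proteins lay near the reference for the most part. Syp, which encodes synaptophysin, the most widely used vesicle marker, had ratios of 1.30, 1.11, 1.24 and 1.63 on chip A. It was modestly higher on each array (0.38 ± 0.24, limma adjusted p = 0.0329, percentile 90.4). Syngr1, the related synaptogyrin gene, was not called (-0.27 ± 0.20, limma adjusted p = 0.0701). The SV2 glycoprotein genes behaved unevenly. Sv2a had 0.624, 0.469, 1.13 and 0.951 on chip A. On chip B its ratios were 0.528, 0.527, 0.840 and 0.877, with replicates 1 and 2 as the low pair on both, and it was not called on either (limma adjusted p = 0.178 and 0.0553). Sv2b had 3 probe sets, with ratios of 3.30, 1.92, 1.87 and 2.15 in the first, 0.957, 1.11, 0.995 and 0.905 in the second, and 0.453, 0.481, 0.487 and 0.448 in the third. The first was higher and the third lower than 1 (limma adjusted p = 0.00289 and 0.000161 over probe sets), so that the gene's mean of 0.02 ± 0.11 describes none of the outer pair.

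Synapsins, which tether vesicles in the reserve pool, were not called as genes. Syn1 averaged -0.19 ± 0.11 and Syn2 -0.19 ± 0.11 on chip A (limma adjusted p = 0.0923 and 0.0918), and Syn2 averaged -0.05 ± 0.06 on chip B (limma adjusted p = 0.454). Each had 1 chip A probe set lower than 1 and another that was not called.

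The vesicular glutamate transporters, which load glutamate into vesicles, differed from each other in their ratios. Slc17a6, which encodes VGLUT2, had ratios of 3.14, 2.72, 1.93 and 2.86 in replicates 1 to 4 on chip A, high on each array and least so in replicate 3. Its mean log2 ratio was 1.39 ± 0.31 (limma adjusted p = 0.000582, percentile 98.7). Slc17a7, which encodes VGLUT1, had probe sets at 0.937, 1.15, 1.03 and 0.915 and at 0.936, 1.01, 0.990 and 0.936, all close to the reference (-0.02 ± 0.10, limma adjusted p = 0.849). The ranges of the pair of genes did not overlap, and a ratio does not show which transporter was more abundant. In the mature brain VGLUT2 is the main form in subcortical neurons and VGLUT1 in cortical ones.

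Genes of vesicle retrieval were all near the reference. Dnm1, the neuronal dynamin that pinches vesicles off, had ratios from 0.993 to 1.30 and a mean of 0.15 ± 0.18 (limma adjusted p = 0.253). Amph (amphiphysin) stood at -0.14 ± 0.13, Synj1 (synaptojanin, the lipid phosphatase that uncoats vesicles) at -0.08 ± 0.33, and Sh3gl2 (endophilin A1) at -0.31 ± 0.22 on chip A and -0.04 ± 0.14 on chip B. None was called. The limma adjusted p of Sh3gl2 on chip A was 0.0545, and 0.0229 without replicate 2 (log2 ratio -0.42), its highest array. Dlg4 encodes PSD-95, the scaffold of the postsynaptic density and the 1 postsynaptic protein of the list. It was lower as a gene (-0.43 ± 0.12, limma adjusted p = 0.00737), a call carried by 1 of 3 probe sets, with ratios of 0.490, 0.520, 0.532 and 0.483. The probe set nearest to the reference had 0.949, 0.985, 0.992 and 1.06.

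Disagreement between probe sets of 1 gene was thus common in this group. On chip A 14 of the 31 genes had several probe sets, and 3 of these 14 (21.4%), Bsn, Sv2b and Syt4, had probe sets called in both directions. Of all 1868 named genes with several probe sets on chip A, 4.82% did. The highest and lowest probe set of a gene lay more than 1 apart on the log2 scale in 5 of the 14 (35.7%) and in 18.5% of all such genes. The median gap was 0.87 in the group and 0.42 over all such genes. At the level of probe sets, 9 of 49 on chip A were higher (18.4%, against 9.21% of all 15866) and 14 were lower (28.6% against 30.1%). On chip B 1 of 7 was higher (14.3%, against 5.08% of all 15276) and 2 were lower (28.6% against 27.1%).

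**Figure D3:**
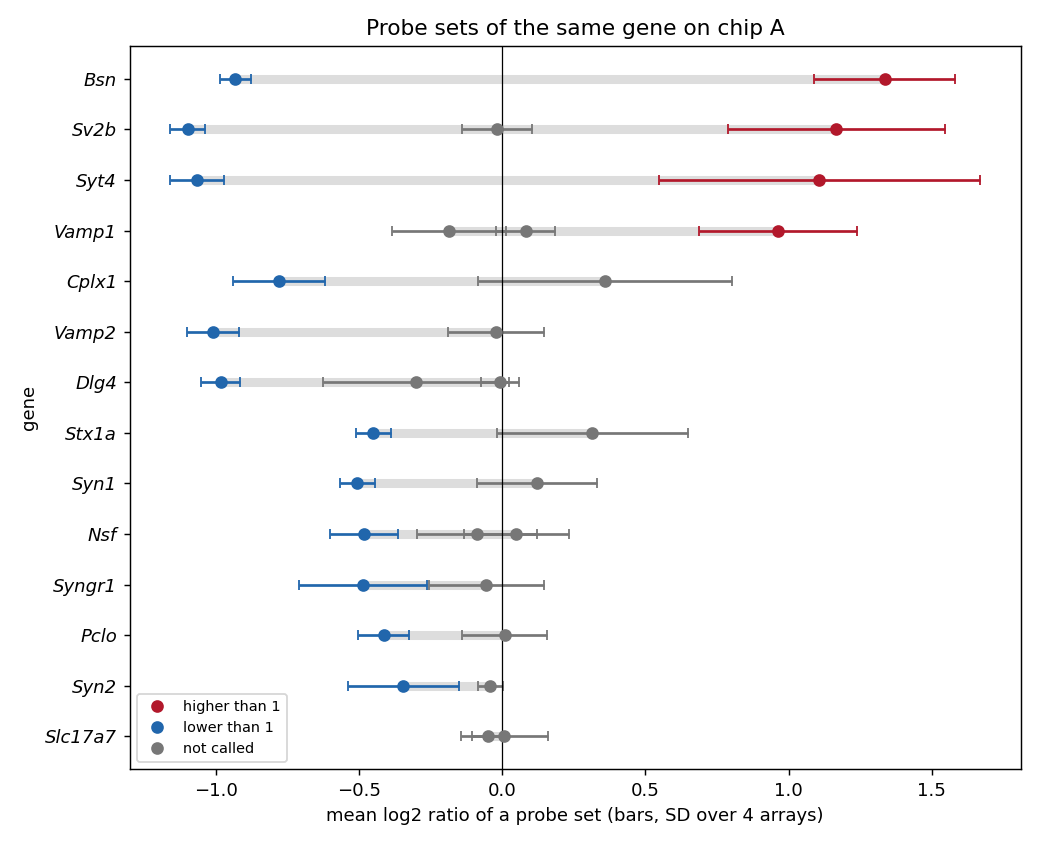
Mean log2 ratio ± SD over 4 arrays for each probe set of the 14 release machinery genes with several probe sets on chip A, joined by a grey bar within a gene. Bsn, Sv2b and Syt4 have probe sets called on both sides of 0, and Slc17a7 has the closest pair.

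The high and the low probe sets also differed in how they varied between replicates. Of the 9 higher probe sets on chip A, 6 were highest in replicate 1 (66.7%), and of all 1112 named probe sets called higher 35.7% were. The median deviation from a probe set's own mean over these 9 was 0.26, -0.23, -0.26 and 0.18 on the log2 scale in replicates 1 to 4, and over all 1112 it was 0.10, -0.09, -0.0039 and 0.02. Replicates 1 and 4 were thus the high arrays for Snap25, Bsn, Sv2b, Cadps, Syt4 and Slc17a6 alike, except that Vamp1 had its lowest value in replicate 1, and Cplx2 had its highest in replicate 3. The low probe sets were far more even. Of the 14 lower ones, 9 had an SD under 0.1 (log2), and none of the higher ones did. Over all named probe sets called lower on chip A 43.9% had so small an SD, and 6.29% of those called higher.

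The 9 even, low probe sets had mean ratios from 0.467 to 0.750 and median deviations of -0.04, 0.04, 0.06 and -0.06 in replicates 1 to 4. Not each of the 9 followed these medians. The low Syt4 probe set was highest in replicate 4 (0.510) and the low Vamp2 one was lowest in replicate 3 (0.472). All 1733 named probe sets called lower with so small an SD on chip A had median deviations of -0.04, 0.04, 0.06 and -0.06 as well. Among them were 31 probe sets of genes of other organs, such as the insulin gene Ins2 and the casein gene Csn2, with mean ratios from 0.339 to 0.818 and median deviations of -0.04, 0.03, 0.06 and -0.06. Ins2, for one, had ratios of 0.332, 0.349, 0.349 and 0.325. Low, even ratios, as in the Rims1, Bsn, Sv2b, Syt4, Dlg4 and Vamp2 probe sets, were thus also measured for genes of other organs, of which 35 of 63 (55.6%) were lower on chip A, against 32.9% of all named genes. By limma 0 of these 63 genes were called higher, with 0 at an unadjusted p under 0.05. Whether such probe sets detected their transcripts was not tested.

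**Figure D4:**
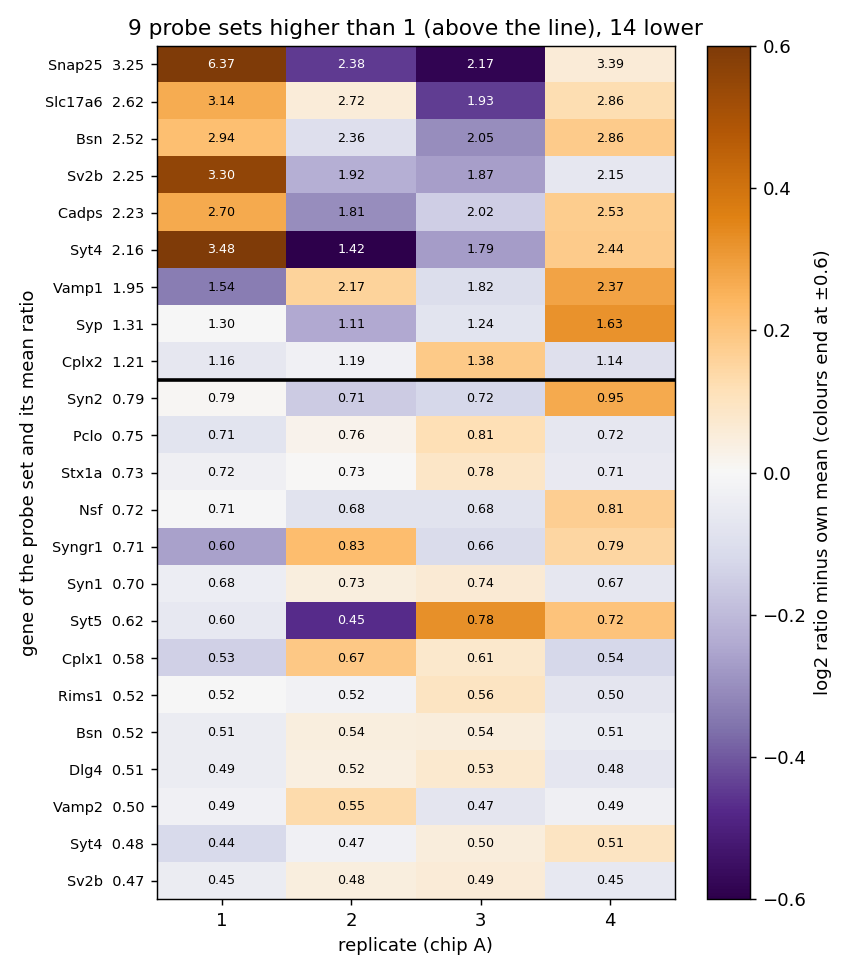
Ratios (printed in the cells) of the release machinery probe sets called on chip A, in the 4 replicates, with colour for the log2 deviation from the probe set's own mean. Above the line, replicate 1 is the high array for 6 of 9 probe sets, and below it most cells are pale, with an SD under 0.1 (log2) in 9 of 14 probe sets.

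Over all named genes 9.17% were higher and 32.9% lower on chip A; for chip B the shares were 4.13% and 30.9%. Of 41 other genes of the release machinery on chip A, 1 was higher (2.44%) and 18 were lower (43.9%), with a median log2 ratio of -0.20. The higher one was Rimbp2, which encodes a RIM-binding protein, at ratios of 1.997, 1.987, 1.09 and 1.28 (0.62 ± 0.44, limma adjusted p = 0.0335), and 3 Rimbp2 probe sets on chip B averaged 0.04 ± 0.23. Next in order were Syngr3 at 0.43 ± 0.47 and Stxbp5 at 0.21 ± 0.46, neither called. The lowest were the acetylcholine transporter gene Slc18a3 at -1.69 ± 0.09, Unc13c at -1.47 ± 0.05 and Sv2c at -1.24 ± 0.06 (limma adjusted p from 0.000115 to 0.000137), again low and even. On chip B 4 of 10 were lower (40.0%, against 30.9% of all named genes) and none was higher by limma (0 at an unadjusted p under 0.05).

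SNAREs of general membrane traffic, which serve the Golgi, endosomes and the plasma membrane of all cells, were lower for 16 of 28 genes on chip A (57.1%, against 32.9%) and higher for none by limma (0 at an unadjusted p under 0.05), with a median of -0.40. The lowest were Snap23, the widely expressed relative of Snap25, at -0.97 ± 0.26 (limma adjusted p = 0.00142), Stx7 at -0.95 ± 0.22 and Vamp7 at -0.86 ± 0.24. Snap23 had ratios of 0.403, 0.621, 0.541 and 0.498, all below the lowest Snap25 ratio. Of 16 postsynaptic scaffold genes on chip A, Dlgap1 was higher (0.58 ± 0.15, limma adjusted p = 0.00297) and 6 were lower (6.25% and 37.5%, near the shares of all named genes), led by Dlgap2 at -1.15 ± 0.06.

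**Figure D5:**
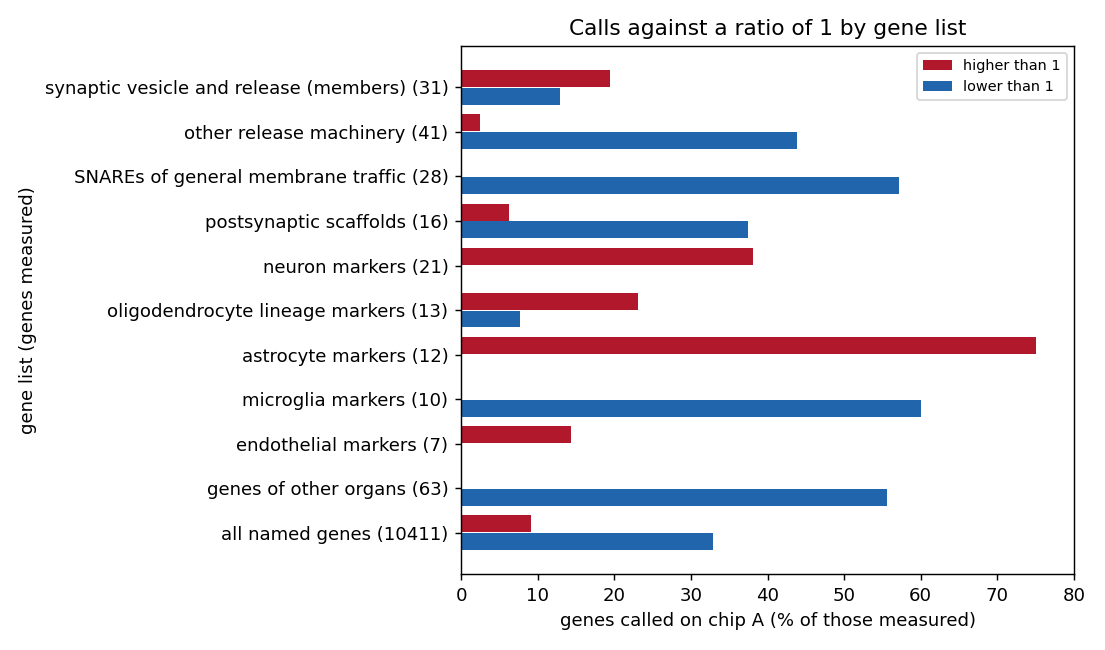
Share of measured genes called higher (red) or lower (blue) than a ratio of 1 on chip A, for the release machinery genes and the other gene lists, with all named genes at the bottom. The release machinery had 19.4% higher and 12.9% lower, and astrocyte, neuron and oligodendrocyte lineage markers had larger shares of higher calls.

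Markers of the cells that the sort could hold were read beside these values. Neuron markers were higher for 8 of 21 genes on chip A (38.1%, against 9.17% of all named genes). None was lower by limma (0 at an unadjusted p under 0.05). Their median log2 ratio was 0.48, 0.21, 0.41 and 0.33 in replicates 1 to 4, against -0.09, -0.02, -0.02 and -0.08 for the 31 release machinery genes. The highest were Elavl4, an RNA-binding protein gene of neurons, at 1.81 ± 0.68, Reln at 1.78 ± 0.40 and Celf4 at 1.73 ± 0.51 (limma adjusted p from 0.000501 to 0.00276). The lowest were the neurofilament genes Nefl at -0.09 ± 0.14 and Nefm at -0.02 ± 0.36, with Gad2 at -0.04 ± 0.07, none called. On chip B the list had 2 genes. Elavl2 was higher there (0.43 ± 0.20, limma adjusted p = 0.0190) and Elavl3 was not called (-0.29 ± 0.22, limma adjusted p = 0.0821). On chip A replicate 1 had the highest median of the neuron list and the highest Snap25 ratio. Gene by gene, it was the highest array for 8 of the 21 neuron markers and the lowest for 6. Elavl4 was highest in replicate 3, at a ratio of 4.94. Astrocyte markers were higher for 9 of 12 genes (median 1.19), with array medians from 0.89 to 1.51. Markers of the oligodendrocyte lineage were higher for 3 of 13 on chip A (23.1%, against 9.17% of all named genes) and lower for 1 (7.69%, against 32.9%). Their median was 0.05, with array medians from -0.04 to 0.26. The higher ones were Bcan at 1.04 ± 0.16, Pdgfra at 0.93 ± 0.65 and Ptprz1 at 0.88 ± 0.24 (limma adjusted p = 0.000398, 0.0281 and 0.00169). The lower one was Cldn11 at -0.62 ± 0.06 (limma adjusted p = 0.00107). On chip B none of 3 was higher by limma (0 at an unadjusted p under 0.05), with a median of -0.23. Olig2 was lower there (-0.23 ± 0.07, limma adjusted p = 0.0247), 33.3% of the list against 30.9% of all named genes. Microglia markers were lower for 6 of 10 (median -0.53, array medians from -0.73 to -0.03), and endothelial markers were higher for 1 of 7 (14.3%, against 9.17% of all named genes), with array medians from -0.44 to 0.45. The part that neurons or astrocytes among the sorted cells had in the ratios of Snap25, Slc17a6, Cadps and Napb was not tested, and ratios cannot show whether any marker was at 0.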

How the data were processed

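Biotin-labelled RNA of 4 replicates was read on 2 array types, and per the submitters' processing notes RMA was used, with no version. The deposited values are linear ratios to an unnamed reference, from 0.01 to 34.3; no source used here gives the step that made them ratios, and they carry no brightness, so depth over background is unknown. On chip B 23.0% of probe sets held exactly 1 on some array (0.914% on chip A). Array median ratios ran from 0.888 to 0.967.

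From these, 57 control probe sets per type were left out, leaving 15866 and 15276. Of them 12783 and 7564 had 1 gene symbol in the platform annotation, 312 and 100 several, 2771 and 7612 none. Gene values are means of log2 ratios over a gene's single-gene probe sets, tested with limma 3.58.1 (R 4.3.3; intercept, eBayes, two-sided), with Benjamini-Hochberg adjustment per array type at 0.05; the test was checked on simulated data. Probe sets were fitted likewise. Over the 100 probe sets on both types, same-numbered arrays deviated together (r from 0.736 to 0.823, other pairs from -0.500 to -0.013), so a replicate number was taken to mark the same sample on both. All members are named where measured; of other lists, some of the 3 highest and 3 lowest genes. Members, lists, motifs and the printed promoters were chosen with earlier results of these data known.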

Additional observations from a re-analysis of the deposited data

Results flagged for a closer look

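A single value stood apart from its group. Over 70 sets of 4 arrays (genes, and probe sets of genes with several), 1 had a highest or lowest array whose gap to the next exceeded Dixon's critical share of the whole range, where chance gives about 1 in 20. In the gene mean of Syn1 on chip A, replicate 1 stood at a ratio of 0.777, and replicates 2 to 4 lay between 0.904 and 0.915 (gap share 0.931).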

How the results depend on the processing

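The alternatives were arrays centred on their median or on genes of other organs, quantile normalization, the median or the highest probe set of a gene, a trended robust prior, filters on ratios of 0.05 or lower and on values of exactly 1, and leaving out each replicate. Centring on genes of other organs was not run on chip B, which held 3 of them, fewer than the 20 required. Of the group on chip A, 6 genes were higher than 1 as reported. There were 13 with centring on genes of other organs, 3 with the trended robust prior, and 3 to 4 with 1 replicate left out. Of the lower genes, 4 as reported, there was 1 with centring on genes of other organs, 2 with the highest probe set, and 4 to 5 with 1 replicate left out. Over all named genes on chip A, 955 were higher and 3426 lower, against 3460 and 1726 when centred on genes of other organs. The median log2 ratio of the group on chip A, -0.08, was 0.039 after centring on array medians, which adds 0.12 on chip A and 0.10 on chip B; centring on genes of other organs adds 0.32. Under that centring Rph3a, Slc17a7 and Unc13a turned to higher calls, at 0.26, 0.30 and 0.28 (limma adjusted p = 0.0212, 0.0165 and 0.0203). What besides the added constant moves these counts was not tested. Counts on chip B stayed within 1.5 times of those reported. Over the single genes and alternatives, 375 values kept direction and call, 20 lost the call, 13 gained one, and 37 changed sign without a call. No paired analysis was possible because each fit holds the 4 arrays of 1 type, in which every replicate number occurs once; chip A and chip B were not compared by a test, although same-numbered arrays deviated together. The 4 arrays per type limit the precision.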
